A study of Mus musculus with 6 samples.

Results

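Matricellular proteins are secreted into the extracellular matrix, where they bind collagens, growth factors and cell-surface receptors and modulate adhesion, migration and matrix assembly without forming the scaffold themselves. In skin they are known for their roles in wound repair, when several of them are produced transiently at high level. Transglutaminase 2, which is not a matricellular protein in the strict sense, joins proteins of the matrix by isopeptide bonds and also acts at the cell surface as a partner of integrins and fibronectin. The genes described here are the thrombospondin genes Thbs1 and Thbs2, Tnc (tenascin C), Postn (periostin), Sparc, Spp1 (osteopontin), Ctgf and Cyr61 (the older symbols of Ccn2 and Ccn1), Ecm1 (extracellular matrix protein 1) and Tgm2. They were chosen by name, with earlier results of these data known, as 10 of the 43629 genes in the deposited tables.

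Their expression was measured by RNA-seq in primary dermal fibroblasts that had been isolated from newborn mouse skin and cultured for 6 days (passage 1). The caNrf2 group was 3 libraries in which Col1a2Cre was combined with a mutant Nrf2 that is constitutively active, and the ctrl group was 3 libraries from mice with Col1a2Cre alone. All mice were on a mixed background of 50% C57Bl/6 and 50% FVB/N. Nfe2l2 is the gene of NRF2, a transcription factor known for inducing genes of the response to oxidants and foreign compounds. The design text gives 3 mice per group, and each library was taken to be 1 mouse. Cre was driven by Col1a2 and so acts in cells that express this collagen gene. Other cells carried over from the skin need not express the mutant. Fewer cells of a type and less RNA per cell cannot be told apart in such bulk libraries.

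The libraries held 30168400 to 45164208 expected counts, and a single read was worth 0.0223 to 0.0331 CPM, the count scaled to a common library size. Nfe2l2 stood at 352, 430 and 358 CPM in caNrf2 replicates 1 to 3, against 113, 103 and 112 CPM in ctrl replicates 1 to 3 (3.48-fold, edgeR adjusted p = 5.96e-06). Any reads of the mutant assigned to Nfe2l2 cannot be told apart from those of the endogenous gene in counts summed per gene. All 11 fibroblast markers examined were detected, led by Col1a1 at 11967 ± 762 CPM in caNrf2 and 17603 ± 3234 CPM in ctrl (SD, n = 3 each). Macrophage and leukocyte markers summed to 172 to 208 CPM in caNrf2 libraries, against 24.2 to 68.3 CPM in ctrl libraries, and 16 of the 17 tested were called higher. Skeletal muscle markers summed to 199 to 277 CPM in caNrf2 and 144 to 156 CPM in ctrl libraries, with 11 of 14 tested called higher. Keratinocyte markers summed to 314 to 512 CPM in caNrf2 and 199 to 323 CPM in ctrl libraries, with 2 of 11 called higher. Endothelial markers summed to 18.7 to 19.8 CPM in caNrf2 and 13.2 to 17.5 CPM in ctrl libraries, with 1 of 10 called higher. Of all genes tested, 12.5% were called higher, and the shares of keratinocyte and endothelial markers, 18.2% and 10%, lay near that. None of these markers was at 0 in all 6 libraries. The most abundant marker of each kind was Lyz2, Myh3, Krt5 and Egfl7.

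All 10 genes passed the filter on low counts. Tgm2, Ecm1 and Spp1 were higher in caNrf2 cultures, Postn and Thbs2 were lower, and Thbs1, Tnc, Sparc, Cyr61 and Ctgf did not pass the threshold. A gene is said to be called where edgeR's quasi-likelihood test, adjusted over all 15341 genes tested, gave an adjusted p below 0.05. The test called 5 of these 10 genes, 3 higher and 2 lower, where it called 21.5% of all genes, 12.5% higher and 9.03% lower. The median log2 fold change of the 10 genes was 0.25 and that of all genes tested -0.0031. The 3 caNrf2 libraries lay entirely above or below the 3 ctrl libraries for 6 of the 10 genes, 3 above and 3 below, while this held for 42.1% of all genes tested, 22% above and 20.1% below.

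**Figure D1:**
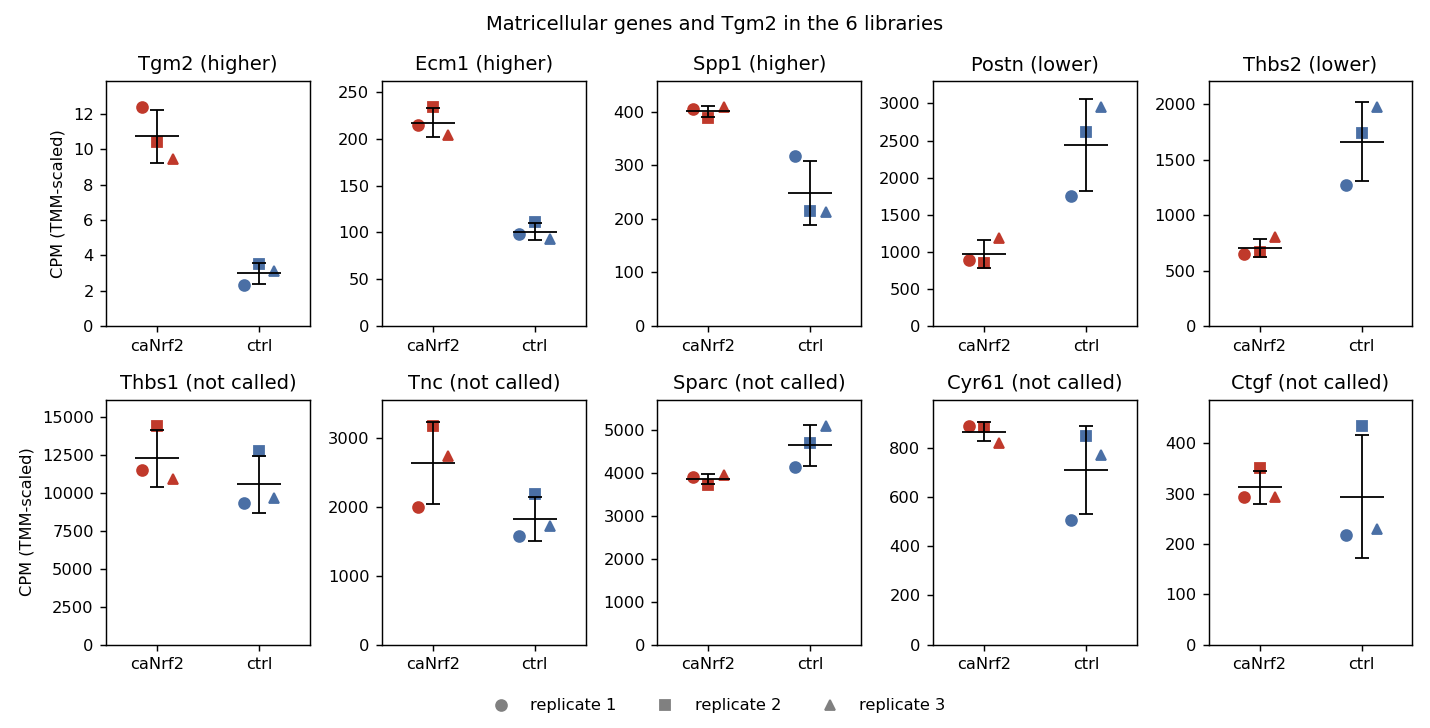
Each panel plots 1 gene in CPM with TMM-scaled library sizes, caNrf2 on the left and ctrl on the right. Symbols are the 3 replicates of a group, the black line is their mean and the bar is ± 1 SD. The caNrf2 points lie apart from the ctrl points for Tgm2, Ecm1, Spp1, Postn, Thbs2 and Sparc.

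Tgm2, the calcium-dependent crosslinking enzyme (ENSMUSG00000037820, chromosome 2, 158116402 to 158146436, GRCm38), had the highest fold change of the group at the lowest level. It stood at 12.4, 10.4 and 9.42 CPM in caNrf2 replicates 1 to 3, against 2.31, 3.51 and 3.11 CPM in ctrl replicates 1 to 3. Every caNrf2 library was above every ctrl library, on 409 to 461 counts in caNrf2 and 82 to 157 counts in ctrl. The log2 fold change was 1.84 with an SE of 0.18 (edgeR adjusted p = 0.000169). Macrophages also express Tgm2, and their markers were higher in the same cultures, as given above. The marker sums were 188, 208 and 172 CPM in caNrf2 replicates 1 to 3, against 24.2, 68.3 and 68.0 CPM in ctrl replicates 1 to 3. Among ctrl libraries, replicate 1 was the lowest for both the sum and Tgm2. Among caNrf2 libraries, replicate 2 had the highest sum and replicate 1 the highest Tgm2. The part of these cells in the Tgm2 result was not tested.

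The Tgm2 transcript of 13 exons, ENSMUST00000103122, was estimated at 5.89, 5.43 and 4.87 TPM in caNrf2 and 1.21, 1.83 and 1.61 TPM in ctrl replicates 1 to 3. It held 99.2% to 100% of the gene's TPM in caNrf2 libraries and 78.9% to 100% in ctrl libraries. TPM scales reads by transcript length to a common total per library. The genes whose profile over the 6 libraries was closest to that of Tgm2, of 10831 others with a mean of at least 5 CPM, were Bmp6, which encodes a bone morphogenetic protein, Ptgir, which encodes the prostacyclin receptor, and H2-T10. Their centred log2 CPM differed from that of Tgm2 by 0.119, 0.142 and 0.146 (root mean square over 6 libraries).

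Of the other 7 transglutaminase genes and Epb42, which encodes a catalytically inactive relative, few were expressed. Tgm3, known from the hair follicle and epidermis, had 45, 40 and 36 counts in caNrf2 replicates 1 to 3, against 2, 3 and 4 counts in ctrl replicates 1 to 3. It was called higher (edgeR adjusted p = 0.000364), and the groups were far apart, although from few reads. F13a1, which encodes the A subunit of coagulation factor XIII and is abundant in macrophages, averaged 1.44 ± 0.312 CPM in caNrf2 and 0.87 ± 0.25 CPM in ctrl (SD, n = 3 each) with overlapping groups (log2 fold change 0.72, SE 0.28, edgeR adjusted p = 0.101). Tgm1, the third tested member of the family besides Tgm2, was not called either.

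Ecm1, a secreted glycoprotein of the skin that binds other matrix proteins and whose loss in humans causes lipoid proteinosis (ENSMUSG00000028108, chromosome 3, 95734147 to 95739569), was higher in caNrf2. It stood at 214, 234 and 204 CPM in caNrf2 replicates 1 to 3, against 98.4, 111 and 93.4 CPM in ctrl replicates 1 to 3. The groups were well apart and the spread within each was small. For Ecm1 the log2 fold change was 1.11 with an SE of 0.09 (edgeR adjusted p = 7.15e-05). Keratinocytes also express Ecm1. Their markers summed to 314, 512 and 420 CPM in caNrf2 replicates 1 to 3, against 323, 199 and 217 CPM in ctrl replicates 1 to 3. The sums overlapped through replicate 1 of each group and were otherwise higher in caNrf2, and the part of these cells in the Ecm1 result was not tested.

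Reads of Ecm1 were divided among 10 transcripts. The highest, ENSMUST00000117507, took 51.5% to 58.2% of the gene's TPM in caNrf2 libraries and 53.0% to 54.9% in ctrl libraries. Its relative by name, Ecm2, fell to 1.25 ± 0.116 CPM in caNrf2, against 3.97 ± 0.401 CPM in ctrl (SD, n = 3 each; edgeR adjusted p = 0.000293). The promoter window of Ecm1 held 1 match to the AP-1 motif TGANTCA, which reads the same on both strands, and none to the NRF2 motif. It is shown because, of the called genes with a window, only Ecm1 had a match to any motif searched at a start used in the deposited tables. The window (RefSeq, GRCm38.p6, chr3:95739520-95739819, minus strand) runs from 250 bases before to 50 bases after the start, and the match is in capitals.
Ecm1 promoter: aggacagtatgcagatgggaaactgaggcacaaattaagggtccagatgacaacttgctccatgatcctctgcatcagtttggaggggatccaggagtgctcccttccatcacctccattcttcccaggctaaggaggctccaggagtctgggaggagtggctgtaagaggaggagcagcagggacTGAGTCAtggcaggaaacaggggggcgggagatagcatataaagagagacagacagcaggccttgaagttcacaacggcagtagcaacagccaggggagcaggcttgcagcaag

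Spp1, the gene of osteopontin, an acidic glycoprotein that binds integrins and CD44 (ENSMUSG00000029304, chromosome 5, 104435118 to 104441050), was also higher. It stood at 405, 388 and 408 CPM in caNrf2 replicates 1 to 3, against 317, 214 and 213 CPM in ctrl replicates 1 to 3. The caNrf2 libraries lay close together and above all ctrl libraries, of which replicate 1 was the highest. For Spp1 the log2 fold change was 0.69 with an SE of 0.15 (edgeR adjusted p = 0.0121). Activated macrophages are a known source of Spp1, and their markers were higher in caNrf2 cultures. The marker sums were 188, 208 and 172 CPM in caNrf2 replicates 1 to 3, against 24.2, 68.3 and 68.0 CPM in ctrl replicates 1 to 3, and the ctrl library with the lowest sum had the highest Spp1 of its group. The part of these cells in the Spp1 result was not tested.

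Spp1 lies on chromosome 5 beside other genes of acidic phosphoproteins of bone and tooth. Dmp1 (104202617 to 104214102) had 17, 22 and 24 counts in caNrf2 replicates 1 to 3 and 0 in each ctrl library, which is at least 6.02-fold higher against a floor of 3 counts per library (edgeR adjusted p = 0.000824). Ibsp (104299171 to 104311469) had 1 count in all 6 libraries together, and Mepe (104325329 to 104338611) had 0.

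Postn, whose protein binds collagen and promotes its crosslinking (ENSMUSG00000027750, chromosome 3, 54361109 to 54391034), had the lowest fold change of the set. It stood at 887, 850 and 1191 CPM in caNrf2 replicates 1 to 3, against 1754, 2616 and 2949 CPM in ctrl replicates 1 to 3. All caNrf2 libraries were below all ctrl libraries. For Postn the log2 fold change was -1.32 with an SE of 0.20 (edgeR adjusted p = 0.00209). The fibroblast markers did not move as 1 group. Of 11, 4 were called lower (the collagen genes Col1a1, Col1a2 and Col3a1 and the receptor gene Pdgfrb), 2 were called higher (Pdgfra and Thy1) and 5 were not called. Of all genes tested, 9.03% were called lower and 12.5% higher. Their sum, most of which came from these collagen genes, was 29466 to 34555 CPM in caNrf2 and 39191 to 55663 CPM in ctrl libraries.

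Thbs2, a thrombospondin known for its part in collagen fibril assembly and as an inhibitor of angiogenesis (ENSMUSG00000023885, chromosome 17, 14665500 to 14694262), followed the same profile. It stood at 646, 669 and 798 CPM in caNrf2 replicates 1 to 3, against 1273, 1740 and 1971 CPM in ctrl replicates 1 to 3. In both groups replicate 3 was the highest, as for Postn, and the groups were apart. The log2 fold change was -1.24 with an SE of 0.16 (edgeR adjusted p = 0.000902). Of 10831 other genes with a mean of at least 5 CPM, Thbs2 was the one whose centred log2 CPM over the 6 libraries differed least from that of Postn, by 0.0892 (root mean square). The next were Slc27a6, a member of the fatty acid transport protein family, at 0.0985 and Plxna4, a semaphorin receptor gene, at 0.121.

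Thbs1, which activates latent TGF-beta and binds CD36 and CD47 (ENSMUSG00000040152, chromosome 2, 118111876 to 118127133), did not move with Thbs2. It stood at 11520, 14431 and 10919 CPM in caNrf2 replicates 1 to 3, against 9337, 12746 and 9658 CPM in ctrl replicates 1 to 3. The groups overlapped. For Thbs1 the log2 fold change was 0.22 with a 95% interval of -0.12 to 0.55 (edgeR adjusted p = 0.333). Per length, Thbs1 exceeded Thbs2 18.2-, 22- and 14-fold in TPM in caNrf2 replicates 1 to 3, against 7.63-, 7.49- and 5.02-fold in ctrl replicates 1 to 3. The ratios of the groups did not overlap (exact two-sided permutation p = 0.1, the smallest that 3 against 3 allows). Thbs2 was called lower in these same libraries, so the ratio is not a separate result. Of the further thrombospondin genes, Thbs3 was lower, at 15.9 ± 2.12 CPM in caNrf2 and 25.1 ± 4 CPM in ctrl (SD, n = 3 each; edgeR adjusted p = 0.0107). Thbs4 and Comp, at 1.14 and 0.27 CPM in caNrf2 and 0.722 and 0.221 CPM in ctrl on average, were not called.

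Tnc, a large matrix glycoprotein induced in wounds (ENSMUSG00000028364, chromosome 4, 63959785 to 64047015), had a positive fold change that missed the threshold. It stood at 1996, 3173 and 2739 CPM in caNrf2 replicates 1 to 3, against 1576, 2182 and 1712 CPM in ctrl replicates 1 to 3. Replicate 1 of caNrf2 was below replicate 2 of ctrl, so the groups overlapped. The log2 fold change was 0.53 with a 95% interval of 0.12 to 0.94 before adjustment (edgeR adjusted p = 0.0663). Tnc was called under 5 of 16 other settings. These included DESeq2 (0.53, adjusted p = 0.00987) and a replicate block (0.52, edgeR adjusted p = 0.00888). With limma-voom it was not called (adjusted p = 0.0745). The tenascin genes Tnxb and Tnn were lower, Tnxb at 32.2 ± 6.09 CPM in caNrf2 and 47.6 ± 4.81 CPM in ctrl and Tnn at 134 ± 25.9 CPM in caNrf2 and 205 ± 48.6 CPM in ctrl (SD, n = 3 each; edgeR adjusted p = 0.0189 and 0.0441).

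Sparc, a collagen-binding glycoprotein also known as osteonectin (ENSMUSG00000018593, chromosome 11, 55394500 to 55420080), stood at 3891, 3721 and 3954 CPM in caNrf2 replicates 1 to 3, against 4141, 4689 and 5094 CPM in ctrl replicates 1 to 3. Every caNrf2 library was below every ctrl library, by a small margin. The log2 fold change was -0.27 with a 95% interval of -0.49 to -0.05 before adjustment, and the gene was not called (edgeR adjusted p = 0.0807). Sparc was called lower under 3 of 16 other settings, among them DESeq2 (-0.27, adjusted p = 0.0307). Its close relative Sparcl1 was lower, at 31.9 ± 1.46 CPM in caNrf2 and 51.8 ± 7.25 CPM in ctrl (SD, n = 3 each; edgeR adjusted p = 0.00215).

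Cyr61 and Ctgf encode CCN proteins, which bind integrins and heparan sulfate and are known as rapidly induced genes of serum, mechanical load and YAP with TEAD factors. Cyr61 (ENSMUSG00000028195, chromosome 3, 145646971 to 145649985) stood at 890, 886 and 822 CPM in caNrf2 replicates 1 to 3, against 508, 849 and 771 CPM in ctrl replicates 1 to 3. Ctgf (ENSMUSG00000019997, chromosome 10, 24595442 to 24598683) stood at 293, 350 and 293 CPM in caNrf2 replicates 1 to 3, against 218, 435 and 229 CPM in ctrl replicates 1 to 3. Both genes varied more among ctrl libraries than among caNrf2 libraries, and the groups overlapped.

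Neither was called, with a log2 fold change of 0.29 for Cyr61 (95% interval -0.10 to 0.67, edgeR adjusted p = 0.26) and of 0.09 for Ctgf (95% interval -0.46 to 0.63, edgeR adjusted p = 0.83). These intervals include a change of either sign. Ctgf was called higher without ctrl replicate 2, its highest library (log2 fold change 0.48, edgeR adjusted p = 0.025). The promoter window of Cyr61 (RefSeq, GRCm38.p6, chr3:145649936-145650235, minus strand) held 1 match to the TEAD motif GGAATG and 1 to the NRF2 motif TGACNNNGC, both on the other strand and in capitals. It is shown because it was the only window of the set to hold either motif at a start used in the deposited tables.
Cyr61 promoter: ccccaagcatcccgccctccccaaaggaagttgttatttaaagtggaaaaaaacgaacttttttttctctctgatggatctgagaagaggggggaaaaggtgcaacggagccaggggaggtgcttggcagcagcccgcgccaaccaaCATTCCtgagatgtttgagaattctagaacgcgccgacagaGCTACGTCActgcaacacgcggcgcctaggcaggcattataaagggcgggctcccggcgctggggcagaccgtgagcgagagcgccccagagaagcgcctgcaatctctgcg

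The CCN genes outside the set went both ways. Nov (Ccn3) fell to 86.2 ± 21.4 CPM in caNrf2, against 226 ± 15.7 CPM in ctrl, a log2 fold change of -1.39 (SE 0.17, edgeR adjusted p = 0.000639). Wisp1 (Ccn4) fell to 543 ± 42.2 CPM in caNrf2, against 837 ± 53.7 CPM in ctrl (edgeR adjusted p = 0.00201). Wisp2 (Ccn5), the CCN protein that lacks the C-terminal cystine knot domain, rose to 51.1 ± 4.61 CPM in caNrf2, against 28.2 ± 4.15 CPM in ctrl (SD, n = 3 each; edgeR adjusted p = 0.00116).

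**Figure D2:**
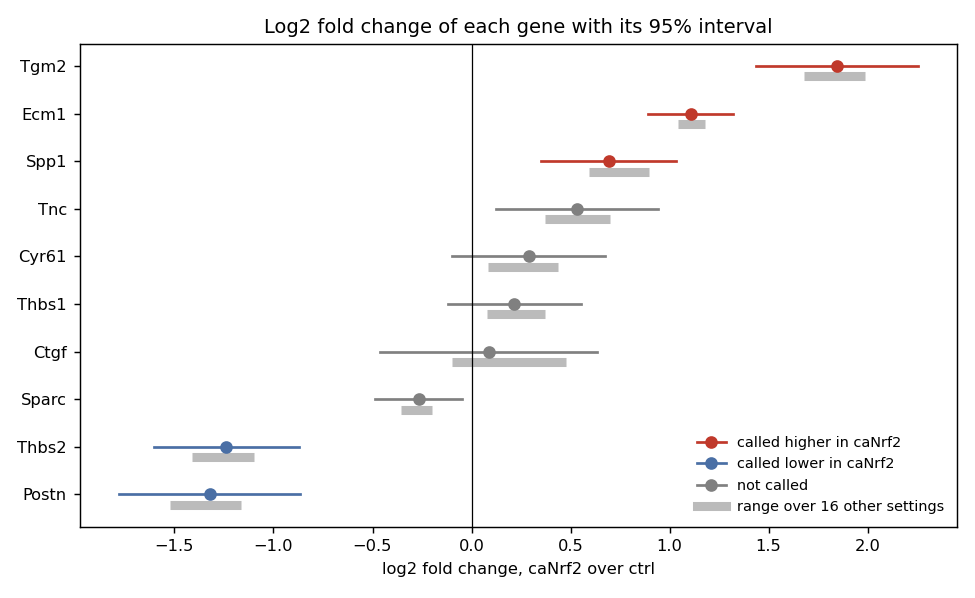
Points are log2 fold changes of caNrf2 over ctrl from edgeR, lines are 95% intervals before adjustment and grey bars span the values under 16 other settings. Tgm2, Ecm1 and Spp1 lie above 0 and Postn and Thbs2 below 0 under every one of these settings, while the grey bar of Ctgf crosses 0.

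Levels can be compared between genes only per length, here as TPM summed over the transcripts of a gene. Thbs1 and Sparc were the most abundant, at 3821 ± 691 and 3313 ± 172 TPM in caNrf2 and at 3438 ± 595 and 4130 ± 462 TPM in ctrl (SD, n = 3 each). They ranked 16 and 23 of all 43629 genes by mean TPM in caNrf2, and 26 and 18 in ctrl. Their ranges overlapped in both groups. Postn followed them in ctrl, at 1534 ± 390 TPM and apart from its neighbours in the order. In caNrf2 it averaged 586 ± 132 TPM, and the ranges of Cyr61, Tnc, Postn and Spp1 overlapped from each to the next.

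Thbs2 averaged 214 ± 32.2 TPM in caNrf2, where its range overlapped those of Ctgf (242 ± 35 TPM) and Ecm1. In ctrl it averaged 525 ± 114 TPM, and its range overlapped those of Cyr61, Tnc and Spp1. Tgm2 was far below all others, at 5.41 ± 0.49 TPM in caNrf2 and 1.77 ± 0.488 TPM in ctrl. Together the 10 genes held 0.942%, 1.15% and 1.05% of all TPM in caNrf2 replicates 1 to 3, against 0.983%, 1.27% and 1.2% in ctrl replicates 1 to 3. The sum overlapped between groups. Sparc exceeded Postn 6.33-, 6.31- and 4.72-fold in TPM in caNrf2 replicates 1 to 3, against 3.30-, 2.57- and 2.45-fold in ctrl replicates 1 to 3 (exact two-sided permutation p = 0.1, the smallest possible). Postn was called lower in these same libraries, so this ratio is not a separate result. The ratio of Tnc to Postn gave the same p and, for the same reason, is not a separate result. That of Cyr61 to Ctgf overlapped between groups (exact two-sided permutation p = 0.6).

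**Figure D3:**
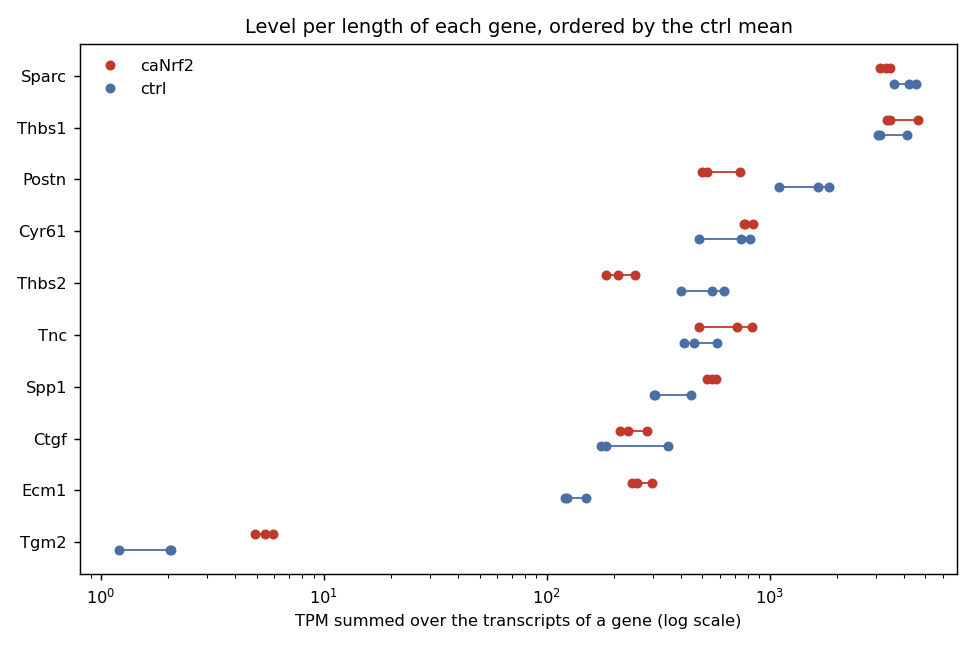
Each row is 1 gene, with the 3 caNrf2 libraries above the 3 ctrl libraries, in TPM on a log scale, and the line spans the group. Thbs1 and Sparc lie far above the other genes in caNrf2, and Tgm2 lies far below them in all 6 libraries.

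Several of these genes are spliced in alternative forms, and the division of reads among transcripts is an estimate of the authors' RSEM run. The use of transcripts was tested with edgeR's diffSpliceDGE in the 7 genes with at least 2 tested transcripts, all but Thbs2, Cyr61 and Tgm2. None was called, none had an unadjusted p below 0.05 and the smallest unadjusted p was 0.108, for Thbs1, while 0.801% of the 7992 genes tested this way were called. Periostin forms differ in optional exons near the C-terminus. Exon 17 of ENSMUST00000081564 (chr3:54380412-54380492, plus strand, 81 bases) and its exon 21 (chr3:54385671-54385754, plus strand, 84 bases) are shown in capitals, between 12 bases of each neighbouring exon, because their presence tells these forms apart. Both lie wholly within the coding sequence.
Postn exon 17: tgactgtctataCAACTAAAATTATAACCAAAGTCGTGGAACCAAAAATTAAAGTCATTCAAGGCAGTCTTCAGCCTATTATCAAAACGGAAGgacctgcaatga
Postn exon 21: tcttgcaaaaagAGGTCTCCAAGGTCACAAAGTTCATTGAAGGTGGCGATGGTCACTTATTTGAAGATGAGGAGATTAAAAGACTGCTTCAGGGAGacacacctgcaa

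Transcripts with exon 17 held 12.5%, 11% and 10.8% of the TPM of transcripts spanning it in caNrf2 replicates 1 to 3, against 18.5%, 11.8% and 12.5% in ctrl replicates 1 to 3. Those with exon 21 held 22.7%, 19.0% and 16.8% in caNrf2, against 24.8%, 19.7% and 18.7% in ctrl. Both shares overlapped between groups (exact two-sided permutation p = 0.3 and 0.6), and replicate 1 had the highest share within each group. The form without either exon, ENSMUST00000117373, was the main one, with 60.6% to 77.8% of the gene's TPM in caNrf2 libraries and 50.7% to 75.9% in ctrl libraries. The form with exon 17 and without exon 21, ENSMUST00000107985, was estimated at 57.2 TPM in caNrf2 replicate 1 and 171 TPM in ctrl replicate 1, and at no more than 1.81 TPM in the other 4 libraries.

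Tenascin C forms differ in the number of fibronectin type III repeats. The deposited tables hold 1 transcript, ENSMUST00000107372, with an additional coding exon of 273 bases (exon 14, chr4:63984460-63984732, minus strand), shown in capitals between 12 bases of each neighbouring exon.
Tnc exon 14: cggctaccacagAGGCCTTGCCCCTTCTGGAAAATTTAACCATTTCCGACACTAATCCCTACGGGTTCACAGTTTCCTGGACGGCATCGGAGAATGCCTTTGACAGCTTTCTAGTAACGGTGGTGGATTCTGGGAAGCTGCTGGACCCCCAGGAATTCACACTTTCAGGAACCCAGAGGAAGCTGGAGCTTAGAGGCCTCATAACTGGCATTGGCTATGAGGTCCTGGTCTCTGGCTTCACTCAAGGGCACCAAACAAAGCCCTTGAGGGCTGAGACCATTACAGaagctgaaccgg

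This form held 11%, 10.5% and 10.6% of the TPM of transcripts spanning the site in caNrf2 replicates 1 to 3, against 11%, 9.23% and 8.56% in ctrl replicates 1 to 3. The groups overlapped (exact two-sided permutation p = 0.4). The other long forms, ENSMUST00000030056 and ENSMUST00000107377, lack this exon, and ENSMUST00000107377 has an additional first exon. ENSMUST00000030056 took 45.7%, 35.9% and 31.1% of Tnc TPM in caNrf2, against 17.4%, 34.6% and 30.2% in ctrl. The shares overlapped, with the extremes in replicate 1 of each group.

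**Figure D4:**
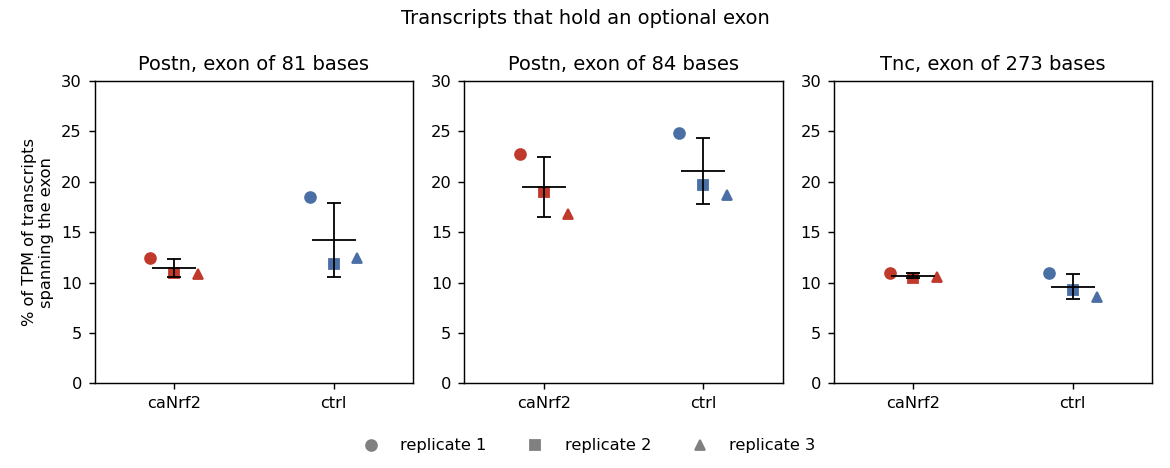
Panels show the share of TPM, among transcripts spanning the site, of those that hold the optional exon, in percent, for caNrf2 on the left and ctrl on the right. Symbols are replicates, lines means and bars ± 1 SD, and the groups overlap in all 3 panels.

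Further genes were grouped by lists of the families, receptors and signals of these proteins, chosen with earlier results of these data known. Among 17 tested of 22 other matricellular genes, 9 were lower, 3 were higher and 5 were not called, with a median log2 fold change of -0.27. The share called was 70.6%, against 21.5% of all genes tested. Besides those named above, the calcium-binding protein gene Smoc2 fell to 32 ± 4.48 CPM in caNrf2, against 71.8 ± 11.2 CPM in ctrl (SD, n = 3 each; edgeR adjusted p = 0.000509). The median was the same with Dmp1 at its bound.

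Among 18 tested of 19 receptor genes, 4 were higher, 1 was lower and 13 were not called (median 0.14). Sdc4, a syndecan that cooperates with integrins on fibronectin, rose to 125 ± 6.77 CPM in caNrf2, against 60.6 ± 6.92 CPM in ctrl (edgeR adjusted p = 0.000122). Adgrg1, an adhesion G protein-coupled receptor known to bind transglutaminase 2, rose to 13.2 ± 2.12 CPM in caNrf2, against 5.54 ± 0.898 CPM in ctrl (edgeR adjusted p = 0.000859). The integrin gene Itga4, part of a receptor for osteopontin and fibronectin, fell to 27.4 ± 5.85 CPM in caNrf2, against 49.3 ± 10.3 CPM in ctrl (SD, n = 3 each; edgeR adjusted p = 0.0115). The share of receptor genes called, 27.8%, lay near the 21.5% of all genes.

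Of 21 YAP and TAZ target genes besides Cyr61 and Ctgf, 3 were higher, 2 lower and 16 not called (median 0.15), again a share, 23.8%, near that of all genes. Foxf2, a forkhead factor gene, rose to 4.83 ± 0.705 CPM in caNrf2, against 0.852 ± 0.333 CPM in ctrl, and Ajuba, a LIM protein gene, to 62.9 ± 5.27 CPM in caNrf2, against 42.1 ± 4.33 CPM in ctrl (edgeR adjusted p = 0.000315 and 0.00378). Igfbp3 and Rbms3 fell (log2 fold change -0.82 and -0.35, edgeR adjusted p = 0.00449 and 0.0286). Replicate 2 was the highest caNrf2 library for 12 of these 21 genes and for 33.5% of all genes tested, and replicate 2 was the highest ctrl library for 12 of these 21 genes and for 31.2% of all genes tested. Of the 10 genes described here, 4 were highest in replicate 2 among caNrf2 libraries and 6 were highest in replicate 2 among ctrl libraries, which in ctrl were Thbs1, Tnc, Cyr61, Ctgf, Ecm1 and Tgm2.

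Of 18 TGF-beta response genes, 4 were higher, 5 lower and 9 not called (median -0.10), and the list shares Col1a1 and Col1a2, both called lower, with the fibroblast markers. The share called was 50%, against 21.5% of all genes tested. Timp1, an inhibitor of matrix metalloproteinases, rose to 216 ± 7.77 CPM in caNrf2, against 117 ± 17.5 CPM in ctrl, and Tagln, which encodes the actin-binding protein transgelin, to 1026 ± 127 CPM in caNrf2, against 584 ± 144 CPM in ctrl (edgeR adjusted p = 0.000689 and 0.0112). The elastin gene Eln fell to 7.84 ± 2.16 CPM in caNrf2, against 26 ± 0.802 CPM in ctrl, and the oxidase gene Nox4 to 4.12 ± 0.433 CPM in caNrf2, against 8.45 ± 0.904 CPM in ctrl (SD, n = 3 each; edgeR adjusted p = 0.000226 and 0.00111).

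**Figure D5:**
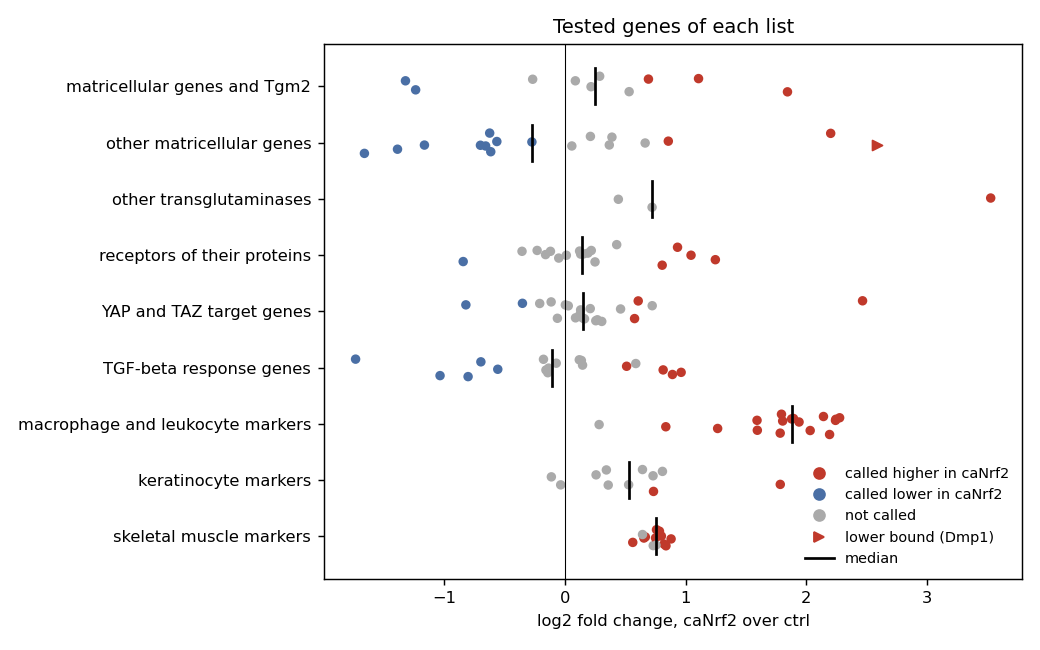
Each point is a tested gene, placed by its log2 fold change of caNrf2 over ctrl and coloured by its call, with 1 row per list and a black line at the median. Dmp1 is drawn at its lower bound. The genes described here spread on both sides of 0, and macrophage and leukocyte markers lie to the right of 0 with a median of 1.88.

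Promoter windows from RefSeq (GRCm38.p6) were at hand for 7 of the 10 genes, 10 windows in all, for all but Thbs1, Ctgf and Tgm2. Searched on both strands, the NRF2 motif TGACNNNGC was found in the Cyr61 window and in the first of the Postn windows (chr3:54359017-54359316), which lies upstream of the Postn starts in the deposited tables. It occurred in 12.4% of all 32851 windows. The TEAD motif GGAATG was found in the Cyr61 window and in 14.7% of all windows, and the AP-1 motif TGANTCA in the Ecm1 window and in 7.81% of all windows. The NRF2 and AP-1 motifs can overlap, since both begin with TGA. The windows of Thbs2, Tnc, Sparc and Spp1 held no match to these letters. Such matches describe the sequence and show no binding.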

How the data were processed

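RNA-seq was measured in 6 libraries, 3 caNrf2 and 3 ctrl, grouped by sample title. Per the submitters' processing notes, RSEM 1.2.21, CASAVA 1.8 and the build GRCm38 were used. For the aligner, the annotation release and the handling of strand, nothing is given in the sources used here, and reads of overlapping genes cannot be told apart. Per the file headers, the authors deposited expected counts of each transcript, in a maximum likelihood and a posterior mean version, and TPM, scaled by the authors per length to a common total. Reads shared by transcripts were divided by estimate.

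The maximum likelihood counts of a gene's transcripts were added up and the sum was rounded. Symbols came from a reference gene table, and older CCN symbols were matched through RefSeq synonyms. With edgeR 4.0.16 in R 4.3.3, genes were filtered with filterByExpr (minimum count 10, minimum total 15), TMM-normalized and tested two-sided with the quasi-likelihood F test without a block, with Benjamini-Hochberg adjustment over 15341 genes and a threshold of 0.05. SEs came from the F statistic, and 95% intervals from its degrees of freedom. Profiles used log2 CPM with a prior count of 2. On simulated counts with 15158 genes tested, 92 of 100 genes changed 2-fold, 55 of 100 changed 1.5-fold and 11 of 14958 unchanged genes were called. The changed genes were drawn only from genes with higher counts, so these rates do not cover genes with few reads, such as Tgm3 and Dmp1. Fewer genes were changed in the simulation than were called in the data. Alternatives were other scalings, filters and count estimates, DESeq2 1.42.0, limma-voom (limma 3.58.1), a replicate block and leaving out each library. A planned comparison of protein sequences was not made here.

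The 10 genes and the lists were chosen with earlier results of these data known. Named by rule were the 10 genes, Nfe2l2, listed relatives, the 2 rising and 2 falling called genes of smallest adjusted p per list, the most abundant marker per cell type, and the 3 nearest profiles of the called genes with the highest and lowest fold change. Dmp1's neighbours Ibsp and Mepe, the low-level Tgm1, and the called fibroblast markers other than Col1a1 were named after their values were seen. Each p-value sets a difference between the groups against the spread among these libraries.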

Additional observations from a re-analysis of the deposited data

How the results depend on the processing

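Tgm2, Ecm1, Spp1, Postn and Thbs2 were called in the same direction under each of the 16 alternatives, with log2 fold changes of 1.68 to 1.99, 1.04 to 1.18, 0.59 to 0.90, -1.52 to -1.17 and -1.41 to -1.10. The highest adjusted p among them was 0.0454, for Spp1 without ctrl replicate 3. Thbs1 and Cyr61 were called under none. Tnc was also called without a filter (0.53, adjusted p = 0.0173) and without caNrf2 replicate 1 or ctrl replicate 2 (0.70 and 0.68), and Sparc with upper-quartile factors (-0.30, adjusted p = 0.0493) and without ctrl replicate 1 (-0.36). Without 1 library, Ctgf ranged from -0.10 to 0.48, with a negative sign without ctrl replicate 1, ctrl replicate 3 or caNrf2 replicate 2, and the cause was not tested. The number of the 10 genes called was 5 to 7 over all alternatives. Over all genes, those lower in caNrf2 numbered 823 to 1143 without 1 library, against 1385 with all 6, the lowest being 823 without ctrl replicate 3 and 864 without caNrf2 replicate 2. With the replicate number as a block, 6 of the 10 genes were called, Tnc being added, and 1888 genes were higher and 1330 lower. The deviations of same-numbered libraries correlated at 0.214, 0.209 and 0.0953 across genes. Those of differently numbered libraries correlated at -0.242 to 0.112. Of these, only caNrf2 replicate 3 with ctrl replicate 2 was above 0. The design text gives no pairing, so the main fit had no block, and a batch shared by replicate number was not tested. No usage of transcripts was called for the 10 genes under its 9 alternatives (smallest adjusted p = 0.278). Tgm3 and Dmp1 had at most 45 counts in a library, and Tgm3 an SE of 0.39 on the log2 scale.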
